A study of Mus musculus with 8 samples.

Results

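The placental genes described here were Prl7a2, Prl8a8, Prl8a9, Tpbpa, Tpbpb, Psg16, Psg21, Ceacam11, Ceacam14 and Cts3, 10 genes of the 18194 that had a probe set of their own. They were chosen by their fall at E16.5 in testes of mice bred to lack Shp2 in Sertoli cells. Their difference at that age is therefore given as a description and was not tested. Whole testes of Shp2f/f and SCSKO mice, both on a C57Bl/6 strain background, were measured on 8 Affymetrix arrays. Each genotype had 1 array at E16.5 (fetal day 16.5), D3 (day 3 after birth), and 1W and 2W (1 and 2 weeks of age). Both genotypes carried the floxed Shp2 alleles, and SCSKO mice in addition carried Amh-Cre, which the study describes as already expressed in Sertoli cells before E16.5. Its Discussion dates the deletion from shortly before E16.5, and its images show the loss of the protein at a later fetal age. How complete the loss was at E16.5 was not shown. By this design germ cells, Leydig cells and other cells of the SCSKO testis keep Shp2, and each array averaged over all of them. How many animals were pooled for an array, if any, was not stated in the sources. In such bulk tissue, fewer cells of a type and less RNA per cell cannot be told apart.

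The mouse placenta makes a large family of hormones related to pituitary prolactin, and most of its genes lie in 1 cluster and are active in trophoblast, the fetal cell layer that invades and borders the uterus. Tpbpa is the classical marker of the spongiotrophoblast, the middle layer of the mature mouse placenta. Trophoblast also secretes pregnancy-specific glycoproteins (Psg) and related carcinoembryonic antigen-like proteins (Ceacam), and it holds a rodent group of cathepsins, which are cysteine proteases.

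All 10 genes had their highest value of the 8 arrays in the Shp2f/f testis at E16.5, and all 10 were far lower in the SCSKO testis of that age. The differences ranged from -2.95 for Ceacam11 to -4.58 for Prl7a2 on the log2 scale, with a median of -3.61, while the median over all genes was -0.0029. Their order and size depend on the scale. For Prl7a2, Prl8a8, Ceacam14 and Cts3 the SCSKO value lay within background, where the array cannot give the full size of a fall, and with 16 added to each intensity the differences were -2.88 for Prl7a2 and -3.78 for Tpbpa, then the largest. With the mean of all probe sets of a gene, Psg21 fell least, by 2.25. At D3 and 1W the genes lay near the level of genes that a testis does not use, in both genotypes, with the exception of Psg21. At 2W most of them were higher again, by up to 3.84 on the log2 scale for Ceacam11, and they then differed far less between genotypes. The plot of the 10 genes by age shows this course.

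**Figure D1:**
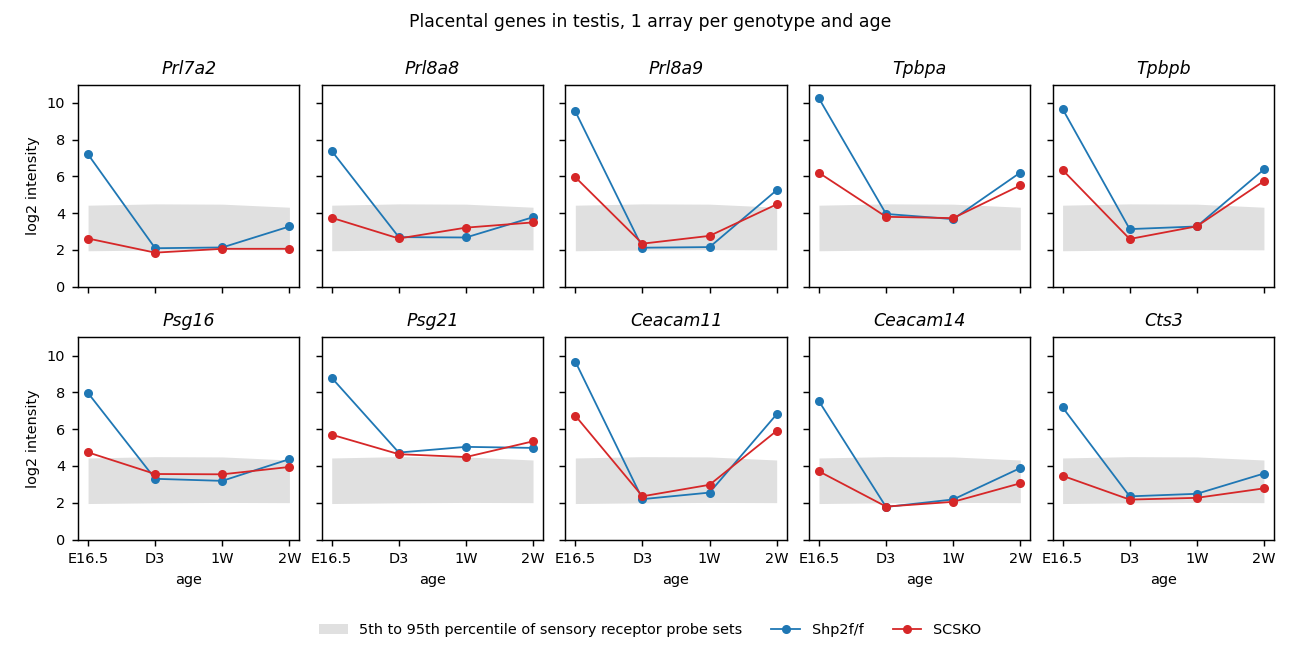
Log2 intensity (vertical axis) of the 10 placental genes at E16.5, D3, 1W and 2W (horizontal axis), 1 array per point, in Shp2f/f (blue) and SCSKO (red) testes. Grey marks the 5th to 95th percentile of the probe sets for sensory receptors, averaged over the genotypes of an age. In all 10 panels the Shp2f/f array of E16.5 is the highest.

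The arrays themselves were alike. Median log2 intensity lay between 4.82 and 4.90, and the correlation across genes between genotypes of an age was 0.9919 to 0.9974. The deleted gene is Ptpn11, which encodes Shp2, and its 3 probe sets differed between genotypes by -0.34 to 0.35 on the log2 scale over the 4 ages. Where these probes lie relative to the deleted part is not known here, so they check nothing. All 15 Sertoli cell genes and all 7 Leydig cell genes of the marker lists lay above the 95th percentile of the receptor probe sets on every array. These receptors (olfactory, vomeronasal and taste receptors) are mostly silent outside sensory tissue, and their 83 probe sets served as a measure of background. Their 95th percentile lay between 4.28 and 4.59 over the 8 arrays.

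Prl7a2, a gene of the prolactin family, encodes a prolactin-like hormone of the placenta. Its log2 intensity was 7.20 in Shp2f/f and 2.62 in SCSKO at E16.5, 2.09 and 1.85 at D3, 2.14 and 2.06 at 1W, and 3.28 and 2.06 at 2W. Only the Shp2f/f value of E16.5 lay above background. Prl8a8, a further prolactin-like hormone, was at 7.39 in Shp2f/f and at 3.75 in SCSKO at E16.5, then at 2.70 and 2.62 at D3, 2.68 and 3.21 at 1W, and 3.78 and 3.50 at 2W. For Prl8a9, its close relative, the values were 9.54 and 5.96 at E16.5, 2.12 and 2.34 at D3, 2.16 and 2.77 at 1W, and 5.25 and 4.48 at 2W. The SCSKO testis of E16.5 thus still held more Prl8a9 signal than any testis of D3, 1W or 2W.

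The 3 hormone genes lie on chromosome 13. In the order of protein-coding genes in RefSeq (GRCm38.p6), Prl8a8 and Prl8a9 are direct neighbours, and 3 other prolactin family genes lie between Prl8a9 and Prl7a2. Their promoters are printed because the 3 genes moved together and because the sequences share a stretch close to the start of transcription. Each line holds the 250 bases before the start, 5′ to 3′ on the gene's own (minus) strand, from RefSeq, and capitals mark TATATAGGA. The windows are chr13:27668037-27668286 for Prl7a2, chr13:27513218-27513467 for Prl8a8 and chr13:27564607-27564856 for Prl8a9.
Prl7a2: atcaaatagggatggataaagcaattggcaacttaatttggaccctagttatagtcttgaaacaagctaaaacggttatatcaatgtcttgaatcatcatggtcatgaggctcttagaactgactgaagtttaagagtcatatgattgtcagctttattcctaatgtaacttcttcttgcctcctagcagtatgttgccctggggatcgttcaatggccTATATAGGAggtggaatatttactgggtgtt
Prl8a8: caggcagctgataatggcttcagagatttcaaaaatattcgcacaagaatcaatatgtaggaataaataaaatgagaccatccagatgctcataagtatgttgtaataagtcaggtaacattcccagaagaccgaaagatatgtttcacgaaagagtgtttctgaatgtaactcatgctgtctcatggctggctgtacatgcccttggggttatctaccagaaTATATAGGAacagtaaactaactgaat
Prl8a9: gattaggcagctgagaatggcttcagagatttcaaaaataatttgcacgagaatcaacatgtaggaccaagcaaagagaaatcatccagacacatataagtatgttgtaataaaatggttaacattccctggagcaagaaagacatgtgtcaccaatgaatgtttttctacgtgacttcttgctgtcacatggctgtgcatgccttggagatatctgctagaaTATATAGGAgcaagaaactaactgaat
The first base of the shared stretch lies 31 bases before the start in Prl7a2 and 27 bases before it in Prl8a8 and Prl8a9. The promoters of Prl8a8 and Prl8a9 were 78.0% identical in a global alignment, against 54.4% for Prl7a2 with Prl8a8 and 54.7% with Prl8a9. TATATAGGA was found on either strand in 55 of 32817 windows of the same length over all genes (0.168%). It was chosen after the 3 sequences had been seen, so its presence is a description of them.

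The Tpbp genes encode small secreted proteins of trophoblast. Tpbpa, the spongiotrophoblast marker, had a log2 intensity of 10.24 in Shp2f/f and 6.20 in SCSKO at E16.5, 3.96 and 3.80 at D3, 3.68 and 3.73 at 1W, and 6.21 and 5.51 at 2W. A second probe set for it, 1438190_x_at, fell in the same way, from 8.49 to 4.65 at E16.5, and read 5.16 and 3.56 at 2W. The third, 1415809_at, stayed between 2.26 and 2.54 on all 8 arrays. That probe set was within background throughout, so Tpbpa rests on the other pair of probe sets. Tpbpb, the paralog, read 9.67 and 6.35 at E16.5, 3.13 and 2.60 at D3, 3.28 and 3.29 at 1W, and 6.38 and 5.74 at 2W. Its second probe set, 1456246_x_at, showed the smaller fall of 4.23-fold at E16.5, from 6.84 to 4.76. For both genes the SCSKO array of E16.5 and the Shp2f/f array of 2W read nearly the same.

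Tpbpa and Tpbpb lie on the same chromosome with 1 protein-coding gene, Ctla2a, between them, and their promoters are nearly the same sequence. They are printed to show how little the paralogs differ. Capitals mark the bases that had no identical partner in the alignment of the pair, 10 in each sequence. The windows are chr13:60941937-60942186 for Tpbpa and chr13:60904848-60905097 for Tpbpb, both on the minus strand.
Tpbpa: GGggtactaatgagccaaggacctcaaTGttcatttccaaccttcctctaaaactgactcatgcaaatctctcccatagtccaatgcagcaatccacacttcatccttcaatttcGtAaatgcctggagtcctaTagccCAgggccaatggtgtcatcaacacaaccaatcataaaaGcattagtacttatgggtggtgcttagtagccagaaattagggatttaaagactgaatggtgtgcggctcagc
Tpbpb: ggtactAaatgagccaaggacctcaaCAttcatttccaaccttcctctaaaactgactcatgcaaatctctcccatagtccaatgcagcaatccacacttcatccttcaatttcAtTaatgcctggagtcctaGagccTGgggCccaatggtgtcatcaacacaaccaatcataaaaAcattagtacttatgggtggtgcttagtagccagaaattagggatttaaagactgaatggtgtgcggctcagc
The identity was 95.2% over the 252 columns of the alignment, whereas the 24 pairs of promoters from different families among the 8 genes with a promoter in the table were 47.6% to 56.3% identical. Both hold TGACTCA, the AP-1 motif, which occurred in 4.46% of all windows, and GCCNNNGGC, the AP-2 motif, which occurred in 13.7%. None of the other 6 promoters held either of them. CATTCC, the TEAD motif, occurred in Prl8a8 and Prl8a9 alone among the 8 genes and in 12.6% of all windows. AGATAA, bound by GATA factors, was found in Prl8a8 and Ceacam11 (9.99% of all windows), TTCNNNGAA, bound by STAT factors, in Prl8a8 and Psg21 (7.01%), and TATAAA, the TATA box, in Ceacam11 and Cts3 (12.4%). All motifs were searched on both strands. No motif of this set was common to all 8 promoters.

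Psg16 and Psg21 encode secreted proteins of the immunoglobulin superfamily. Psg16 had a log2 intensity of 7.97 in Shp2f/f and 4.74 in SCSKO at E16.5, 3.30 and 3.56 at D3, 3.19 and 3.55 at 1W, and 4.37 and 3.95 at 2W. Its E16.5 level in SCSKO remained above every postnatal value. Psg21 was measured by 3 probe sets. The probe set that stood for the gene, 1431889_x_at, read 8.80 and 5.70 at E16.5, 4.73 and 4.64 at D3, 5.04 and 4.49 at 1W, and 4.98 and 5.34 at 2W. A second, 1431888_s_at, gave a clearer course, with 10.19 and 6.73 at E16.5, 2.84 and 2.79 at D3, 3.45 and 3.38 at 1W, and 5.76 and 5.93 at 2W. The third, 1454091_at, lay between 3.52 and 4.03 on all arrays. The suffixes x and s mark probe sets whose probes can also match related sequences, so the signals of Psg genes cannot be fully separated from each other. This limit also holds for 1438190_x_at of Tpbpa, 1456246_x_at of Tpbpb and all Ceacam11 probe sets but 1448197_at.

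Ceacam11 and Ceacam14 are carcinoembryonic antigen-related genes of trophoblast. They lie on chromosome 7 with Psg16 and Psg21, and 1 protein-coding gene separates them. Ceacam11 was measured by 6 probe sets, and the one that stood for the gene, 1455957_x_at, gave 9.68 in Shp2f/f and 6.73 in SCSKO at E16.5, 2.20 and 2.35 at D3, 2.55 and 2.98 at 1W, and 6.81 and 5.91 at 2W. All 6 fell at E16.5, by differences between -4.25 and -2.95. Over the 6 probe sets, the 2W values ranged from 3.63 to 6.81 in Shp2f/f and from 3.22 to 5.91 in SCSKO. Each of the 6 was lower in SCSKO at 2W, by differences between -1.22 and -0.42. Ceacam14 had 1 probe set, with 7.52 and 3.71 at E16.5, 1.77 and 1.79 at D3, 2.18 and 2.05 at 1W, and 3.89 and 3.06 at 2W. Its 2W values were higher than at D3 and 1W, but they did not leave the background range.

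Cts3 encodes a placental cathepsin. It read 7.19 and 3.47 at E16.5, 2.35 and 2.17 at D3, 2.49 and 2.27 at 1W, and 3.59 and 2.78 at 2W. Its value in Shp2f/f was the higher one at each of the 4 ages, and only the Shp2f/f array of E16.5 was above background.

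At E16.5, all 10 genes were at least 2-fold lower in SCSKO, a count that the choice of the genes fixed, against 61 of 18194 genes (0.335%). Without an offset they took ranks 1 to 11 in the order of differences among all genes, and the only other gene within those ranks was Ceacam12. Just beyond them lay Psg-ps1, at -2.77, and Prl2a1, at -2.14. Of the 20 probe sets that name a single one of the 10 genes, 18 had their highest value on the Shp2f/f array of E16.5. The exceptions were 1415809_at of Tpbpa and 1454091_at of Psg21. The SCSKO testis of E16.5 still read higher than the testes of D3 and 1W. In all 10 genes, the SCSKO array of E16.5 lay above all 4 arrays of D3 and 1W, by 0.59 to 4.21 on the log2 scale above their mean, but only 6 of 10 lay above background. Prl7a2, Prl8a8, Ceacam14 and Cts3 did not. The order of these arrays was not counted over all genes, and it includes an array by which the genes were chosen. In the scatter plot of the E16.5 arrays the 10 genes stand apart from the diagonal together with other members of their families.

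**Figure D2:**
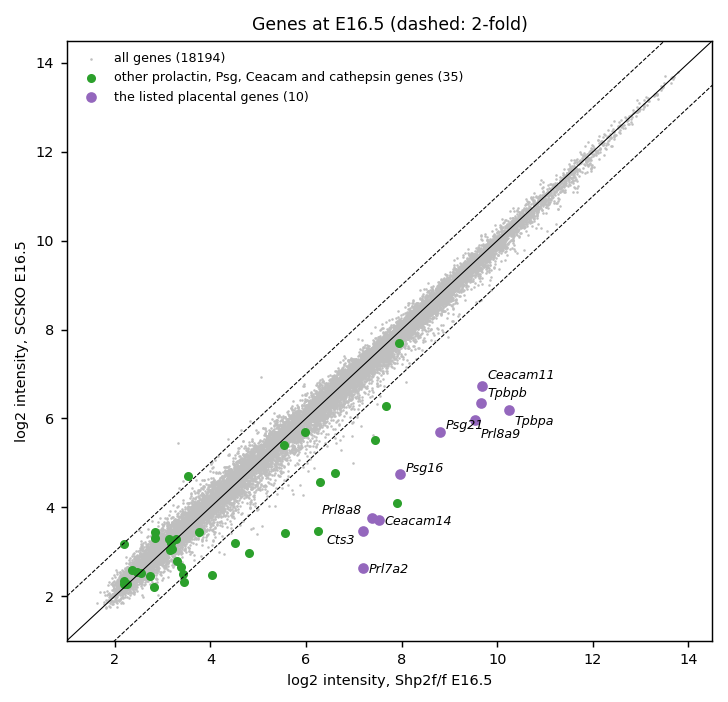
Log2 intensity at E16.5 in SCSKO (vertical axis) against Shp2f/f (horizontal axis) for all 18194 genes (grey), the 10 placental genes (purple) and 35 other genes of their families (green). The solid line marks equal values and the dashed lines a 2-fold difference; all 10 purple points lie below the lower dashed line.

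Other genes of the same families moved with them at E16.5, but not all. Of 35 such genes with a probe set of their own, 11 were at least 2-fold lower in SCSKO and 1 was at least 2-fold higher. In the prolactin family, 4 of 15 other genes were at least 2-fold lower, and 9 of 15 were lower by any amount. Prl2a1 went from 5.56 to 3.42, Prl2b1 from 7.44 to 5.51, Prl8a6 from 6.61 to 4.76, and Prl3a1, within background on both arrays, from 3.45 to 2.31. The median difference of the 15 genes was -0.31. Among the other Psg and Ceacam genes, 6 of 10 were at least 2-fold lower and 9 of 10 lower by any amount, with a median of -1.34. Ceacam12 fell from 7.90 to 4.10, Psg-ps1 from 6.24 to 3.47, Psg18 from 4.81 to 2.98 and Psg23 from 6.29 to 4.56. Psg28 went from 7.67 to 6.28 and Psg17 from 4.51 to 3.20. Of the 10 other placental cathepsins and related genes, Ctsm was at least 2-fold lower (4.03 and 2.47), within background on both arrays. Ctsq was at least 2-fold higher in SCSKO (3.53 and 4.71), with its Shp2f/f value within background. The median of that group was -0.02.

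Of the 26 measured genes of the trophoblast list outside these families, 10 to 15 lay above background, depending on the array. None of 26 trophoblast genes was 2-fold apart at E16.5, their median difference was 0.03, and their summed intensity was 2553 in Shp2f/f and 2418 in SCSKO. At D3, 1W and 2W that sum was 1859 to 3114, so the sums of E16.5 lay within the range of later ages. Plac8 (9.89 and 9.75), Slc2a3 (9.46 and 9.31) and Epas1 (8.02 and 7.85) were the brightest at E16.5. They weigh most in the sum, which therefore cannot show small changes of the other genes. The same sum over the 10 placental genes was 4927 in Shp2f/f and 446 in SCSKO at E16.5, 84.7 to 95.7 over the arrays of D3 and 1W, and 411 and 268 at 2W. Plac1, a gene of the trophoblast lineage, read 6.72 and 6.76, and Hand1, a transcription factor of trophoblast giant cells, read 5.24 and 5.51. Over the 6 later arrays Plac1 lay between 5.89 and 6.77 and Hand1 between 5.11 and 5.34. Flt1 of the same list read 6.19 and 5.91 at E16.5 and 5.01 to 5.34 later. The largest fall of the list at E16.5 was -0.88, of Serpinb9g, from 2.91 to 2.02, within background on both arrays. At E16.5, 14 of the 26 genes lay above background in Shp2f/f and 12 in SCSKO. None of 14 genes of decidua and uterine NK cells, which border the placenta, was 2-fold apart, with sums of 848 and 747. In the yolk sac and liver list the count was 0 of 12, with sums of 8400 and 7684. Over the 6 later arrays the sums were 768 to 992 for decidua and uterine NK cells and 486 to 958 for yolk sac and liver. The yolk sac and liver list was thus far higher at E16.5, and Alb read 11.50 and 11.58 there and 4.93 to 5.47 later. The largest fall of the decidua list was -0.73, of Igfbp1, from 6.94 to 6.20, and Igfbp1 read 2.95 to 3.23 later. Of 11 receptor and signaling genes, which included Socs2, an inhibitor of prolactin and growth hormone signals, none was 2-fold apart. Genes of testis cells shifted by less. The germ cell list of 13 genes was lower in SCSKO, with a median of -0.64, and 1 gene, Piwil2, was 2-fold lower (7.55 and 6.50). The 15 Sertoli cell genes had a median of -0.32 and the 9 peritubular genes a median of 0.40. No gene of the erythroid, Leydig, endothelium or Wolffian duct lists was 2-fold apart, with list medians from -0.30 to 0.10. The erythroid list summed to 6592 in Shp2f/f and 5117 in SCSKO at E16.5, and to 223 to 409 on the later arrays. Among 4 genes that check fetal sex, Xist, active in female cells, read 3.62 and 3.97 and the Y-linked Eif2s3y 8.65 and 7.93. The part of these shifts in the fall of the 10 genes was not tested. The plot of list differences shows each gene.

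**Figure D3:**
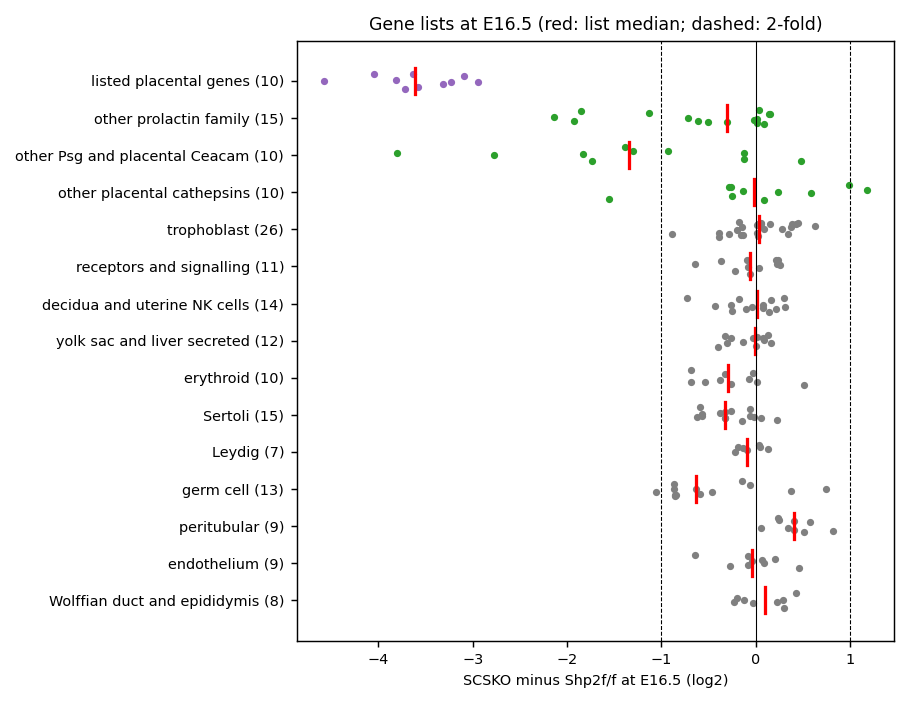
Difference of SCSKO minus Shp2f/f at E16.5 (log2, horizontal axis) for each gene of 15 lists, with the number of genes measured in brackets. Red bars mark the median of a list and dashed lines a 2-fold difference; all 10 placental genes lie at or left of -2.95, and the medians of the other 14 lists lie between -1.34 and 0.40.

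The arrays of D3, 1W and 2W took no part in the choice of the genes, and the comparison of genotypes over these ages asked whether the difference of E16.5 was seen later. Of the 10 genes, 6 were lower in SCSKO at D3, 4 at 1W and 9 at 2W, and the median difference was -0.08, 0.03 and -0.73. In the same pair of 2W arrays, genes of testis cells moved too. The peritubular list had a median of -0.71, with 4 of 9 genes at least 2-fold lower, and the endothelium list a median of -0.55. The Sertoli cell list went the other way, with 14 of 15 genes above their Shp2f/f value. Their part in the 2W difference of the placental genes was not tested. At least 2-fold lower were 0 of the 10 placental genes at D3 (0.066% of all genes), 0 at 1W (0.132%) and 1 at 2W (1.09%), which was Prl7a2 with a difference of -1.21. In that gene the Shp2f/f value of 2W was within background. At D3 and 1W at most 1 of the 10 genes lay above background on any array, so a fit over the 3 ages averages 2W with ages at which a difference could hardly be measured. With limma on the 6 arrays and age as a block, none of the 10 genes was called at an adjusted p of 0.05, and none of the 18194 genes was (0%). At an unadjusted p under 0.05, limma gave 1160 of all genes and 2 of the 10, and the methods' t-test, run on the same values, gave 481 and 0. The 2 were Tpbpb, with a difference of -0.39 ± 0.14 (SE), and Cts3, with -0.40 ± 0.15. Both had a limma adjusted p of 0.743. Differences of the other 8 ranged from -0.51 for Prl7a2 to 0.06 for Psg16, with standard errors of 0.16 to 0.26, against differences of -2.95 to -4.58 at E16.5. The median over the 10 genes was -0.19, and over all genes -0.01.

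At 2W most of the genes were higher than at D3 and 1W. This comparison was chosen after the values had been seen. In the limma fit of the same 6 arrays, 8 of the 10 genes were called higher at 2W against the mean of D3 and 1W, and so were 1659 of all genes (9.12%). The rise was 3.84 ± 0.27 (SE) for Ceacam11 (adjusted p = 0.00247 in limma), 2.99 ± 0.15 for Tpbpb (adjusted p = 0.00129), 2.52 ± 0.28 for Prl8a9 (adjusted p = 0.00647) and 2.07 ± 0.17 for Tpbpa (adjusted p = 0.00304). By the probe set that stood for each gene, these 4 were also above background on both arrays of 2W. SCSKO Prl8a9, at 4.48, was the closest to it. Of the other Ceacam11 probe sets, 1448197_at was within background on both, at 3.63 in Shp2f/f and 3.22 in SCSKO. In SCSKO so were 1434533_x_at (3.42) and 1416063_x_at (4.20), and 1438190_x_at of Tpbpa (3.56). The Ceacam11 probe sets 1436696_x_at and 1439458_x_at and 1456246_x_at of Tpbpb were above it on both. Ceacam14 rose by 1.52 ± 0.19 (adjusted p = 0.00808 in limma). Cts3 (0.87), Prl8a8 (0.84) and Psg16 (0.76) passed with adjusted p between 0.0211 and 0.0440, but 3 alternatives for Cts3, 4 for Prl8a8 and 7 for Psg16 took them past 0.05. Prl7a2, at 0.63 ± 0.24 (adjusted p = 0.143), and the Psg21 probe set 1431889_x_at, at 0.44 ± 0.19 (adjusted p = 0.178), were not called. With the mean of its 3 probe sets Psg21 was called, at 1.07 (limma adjusted p = 0.00366). The 2W level rests on 1 age with 1 array per genotype, so these p-values leave out variation that arrays of an age share.

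For 8 of the 10 genes, both arrays of 2W lay above all 4 arrays of D3 and 1W. How many of all genes had this order was not counted, so it is a description only. Leaving out either array of D3 brought the count of called genes to 5. Genes that mark germ cells were higher at 2W as well. Of 13 measured, 11 were called, with a median rise of 1.46 against 1.20 over the 10 placental genes, and Ddx4, a germ cell RNA helicase, rose by 2.18. The germ cell list summed to 585 to 1248 over the arrays of D3 and 1W, to 3395 and 3372 at 2W and to 5556 and 3309 at E16.5. Of 15 Sertoli cell genes, 4 were called higher at 2W and 2 lower. Of 8 Wolffian duct and epididymis genes, 1 was called higher (Adam7, by 2.81) and 1 lower. Of 14 genes of decidua and uterine NK cells, 3 were called higher (Gzmc the most, by 2.50) and 1 lower. The part of germ cells or of other cells in the 2W signal of the placental genes was not tested. Among the other families, 1 of 15 prolactin genes, 3 of 10 Psg and Ceacam genes and 0 of 10 cathepsins were called higher at 2W, and so were 3 of 26 trophoblast genes.

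The genes that were most raised at E16.5 were also those most raised at 2W. Above the mean of D3 and 1W, the Shp2f/f array stood higher by 4.07 to 7.19 on the log2 scale at E16.5 and by 0.26 to 4.29 at 2W. Across the 10 genes, these gaps of Shp2f/f at E16.5 and 2W had a Pearson r of 0.950. The gap of SCSKO at 2W had an r of 0.874 with the gap of Shp2f/f at E16.5, and that of SCSKO at E16.5 had an r of 0.925. All gaps of a gene share the same baseline, some genes share probes or sequence, and the floor of dim probe sets limits small gaps, so these values only describe the plot of gaps.

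**Figure D4:**
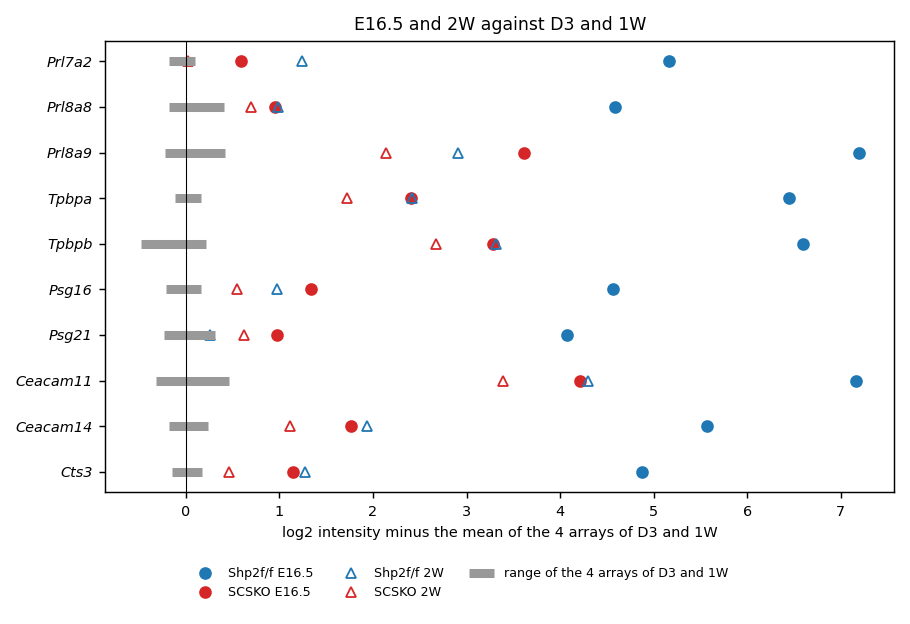
Log2 intensity minus the mean of the 4 arrays of D3 and 1W (horizontal axis) for the 10 placental genes (vertical axis) at E16.5 (filled circles) and 2W (open triangles) in Shp2f/f (blue) and SCSKO (red). Grey bars give the range of the 4 arrays of D3 and 1W; the Shp2f/f circles of E16.5 lie at 4.07 to 7.19, and the open triangles reach 4.29 for Ceacam11.

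The 10 genes followed each other closely over the arrays. The Pearson r between any 2 of them over the 8 arrays ranged from 0.81 to 0.99 with a median of 0.96, and without the Shp2f/f array of E16.5 from 0.37 to 0.99 with a median of 0.91. The mean course of the 10 genes, centred per gene, was then compared with that of 3727 genes that were bright enough and varied by at least 1 on the log2 scale. These values include the E16.5 arrays that chose the genes, and the Shp2f/f array of E16.5 weighs most in them. The most alike were Ceacam12 (r = 0.987 over the 8 arrays), Crtam (0.977), Psg23 (0.977), Psg-ps1 (0.968), Prl8a6 (0.967) and Prl2b1 (0.966). Next came Pih1d2, Wdr75, Tdrd5 and Thumpd3, with r from 0.965 to 0.964. Over the other 7 arrays the order of these 10 changed, with Pih1d2 first (0.962), then Ceacam12 (0.950) and Psg-ps1 (0.934), and with Prl2b1 (0.858) and Prl8a6 (0.842) last. Of these 10, 5 belong to the prolactin, Psg and Ceacam families. The others differed less between genotypes at E16.5, from -1.50 for Crtam to -0.54 for Thumpd3.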

How the data were processed

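RNA of whole testis was extracted with the RNeasy Mini Kit per the labels, whereas the paper's methods name TRIzol, and biotin-labeled cRNA was hybridized to Affymetrix arrays. The authors deposited 1 table of normalized intensity values on a linear scale for 45101 probe sets, and the notes of the submitters give RMA as the method. RMA scales arrays to each other, so values are relative, and no scanner files or detection calls were used here. Log2 was taken with no pseudocount. Of the probe sets, 34958 carried 1 symbol in the platform annotation, 932 several and 9211 none. Where a gene had several, its brightest probe set on average stood for it.

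The 10 genes and all 15 other lists were chosen with earlier results of these data known. With 1 array per group, E16.5 gave differences without a test. Genotype over D3, 1W and 2W was fitted with limma 3.58.1 in R 4.3.3 with age as a block. The contrast of 2W against D3 and 1W (added after seeing the data) was fitted in limma with genotype as a covariate. Both used Benjamini-Hochberg over all genes, two-sided. The ages are the only replication of genotype, and the genotypes the only replication of 2W, so p-values rest on how genotype differences vary between ages and leave out variation shared by an age. Same-age arrays deviated together (r = 0.787 at D3, 0.393 at 1W, 0.765 at 2W). The fit was tested on simulated data with independent noise on each array, so that test does not cover deviations shared by an age. Genes named were the 10 genes with all probe sets, up to 6 genes of each list at least 2-fold apart at E16.5, the 10 genes most like them, the 5 largest differences each way at E16.5, and single markers chosen after their values were seen. Promoters came from RefSeq (GRCm38.p6) for 8 of the 10 genes, all but Psg16 and Ceacam14, and were aligned with biopython 1.88. Alternatives covered the fold, the probe sets, an offset of 16, a filter on dim genes, loess, centring, quantile normalization, the t-test of the paper's methods and single arrays left out.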

Additional observations from a re-analysis of the deposited data

Results flagged for a closer look

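One probe set moved in opposite directions at different ages. Ceacam11 probe set 1436696_x_at was lower in SCSKO at E16.5, from 9.37 to 5.39, and higher in SCSKO at 1W, from 2.17 to 3.55, a difference of 1.38 on the log2 scale. Both values of 1W were within the background of the receptor probe sets, the other 5 probe sets of the gene differed by -0.20 to 0.70 at 1W, and the difference between ages was not tested. Groups of 1 array could not be examined for single arrays far from their group.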

How the results depend on the processing

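All 10 genes stayed at least 2-fold lower in SCSKO at E16.5 in every alternative tried for that age, with differences between -4.63 and -2.25. Of the 35 other placental genes, 11 were 2-fold lower, and 7 of 35 under each of the 3-fold limit and the offset of 16. The filter on dim genes kept 10 of them, of which 7 were 2-fold lower. It kept a gene if the higher array of the E16.5 pair was at or above the median of that array. A gene could thus pass by its Shp2f/f value alone, so the 7 of 10 are a description. Over all genes the count of 61 became 342 at 1.5-fold, 21 at 3-fold and 26 with the offset, and 53 of 12374 after the filter.

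No gene was called for genotype over D3, 1W and 2W in any alternative, and without the block for age, with a single age left out and with the t-test the counts were also 0. Signs of small differences changed. Psg21 was 0.047 with the mean of its probe sets, and Prl8a9 was -0.10 with the offset. With 1 age left out, Prl8a9 ranged from -0.28 to 0.42, Psg16 from -0.0819 to 0.31, Prl8a8 from -0.18 to 0.23, Psg21 from -0.32 to 0.14 and Ceacam11 from -0.37 to 0.29.

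Over all 18194 genes, 1659 were called higher at 2W, 1427 with the mean of probe sets and 1935 with the offset. After the filter they were 1795 of 12907. Of the placental genes, 8 of 10 were called, and 9 of 10 with the mean of probe sets, which added Psg21. With the offset 5 of 10 were called, and 4 of 5 after the filter, which left out the other 5 as dim. With 1 array left out the count ranged from 5 to 9, and over all genes from 669 to 1265, against 1659. The 5 genes called in every alternative that kept them were Ceacam11, Tpbpb, Prl8a9, Tpbpa and Ceacam14. The cause of the other changes was not tested. The number of arrays limits the precision, and signals near background most.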

Other observations

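A probe set that names Psg21 and Psg23 together was left out of the gene counts. At E16.5 it fell from 6.01 (Shp2f/f) to 3.54 (SCSKO), and it lay between 2.85 and 3.21 on the other 6 arrays. Probe sets that name several Prl2c genes differed at E16.5 by -0.53 and 0.09 on the log2 scale.

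In the other direction, the genes most raised in the SCSKO testis at E16.5 among those bright enough were Fabp2, an intestinal fatty acid binding protein (3.32 in Shp2f/f and 5.45 in SCSKO), and Ctrb1, a pancreatic protease precursor (5.06 and 6.92). Napsa (4.36 and 5.54), Pnliprp1, a pancreatic lipase-related gene (4.82 and 5.94), and Cd300a (4.63 and 5.74) followed.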
